A study of Drosophila melanogaster with 4 samples.

Results

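Antimicrobial peptides are short proteins that insects secrete into the haemolymph or onto epithelia to kill bacteria and fungi. In *Drosophila* their genes are switched on mainly by the Toll branch, which ends in the NF-κB factors Dif and Dorsal, and by the Imd branch, which ends in the NF-κB factor Relish. The fat body is the main source in a systemic response, and haemocytes and epithelia such as the gut add to it. A list of 10 of these genes was followed in larvae mutant for *poly*, a gene for a protein resembling the Elp6 subunit of Elongator. The list was *AttA*, *AttC*, *AttD*, *CecA1*, *CecC*, *DptA*, *Dro*, *Drs*, *Mtk* and *Def*, and a gene was included when its symbol, updated to RefSeq, had a probe. A named probe was found for 4 of the 10, *Drs* (CG10810), *Mtk* (CG8175), *AttD* (CG7629) and *Def* (CG1385), each with 1 probe, among 11907 named genes in all. *AttA*, *AttC*, *CecA1*, *CecC*, *DptA* and *Dro* were not analysed here, so the cecropins and drosocin have no value below.

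Each of 4 2-colour arrays set RNA of whole *poly* larvae against RNA of whole wild-type larvae, all of them early third-instar animals, and every array used a separate biological replicate. The mutant stock was poly05137, a P-element insertion kept over the balancer TM6B, and neither the labels nor the methods say that homozygotes were picked for RNA. The wild-type was Canton S, which the labels also give as the genetic background of both genotypes, and no larva was treated or infected. Cy5 marked the *poly* RNA on replicates 1 and 2, and Cy3 marked it on replicates 3 and 4. Every value below is a log2 ratio of *poly* to wild-type signal, so 1 is a doubling and −1 a halving in the mutant, and a ratio says nothing about how strongly a gene was expressed. Because whole animals were used, a smaller share of a tissue and less RNA per cell cannot be told apart.

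The *poly* probe itself (CG9829, current symbol *Elp6*) read −1.49, −1.57, −1.69 and −1.79 on replicates 1 to 4, with the same sign at both dye orientations. Its adjusted p was 0.0109 (limma, Benjamini–Hochberg over 14569 probes). No header states the direction of the ratios, and *poly* was taken as the numerator partly from this probe. The probe is therefore no separate check of the labels. Across all probes 165 were lower (1.13%) and 184 higher (1.26%) at an adjusted p under 0.05, and with the arrays centred and scaled to one spread the split was 149 and 90. The spread was widest on replicate 3, with a median absolute deviation of 0.35 against 0.20 to 0.26 on the others, and its ratios correlated with those of replicate 2 at a Pearson r of −0.183 across probes, which are not independent. The number of arrays limits the precision, and spot intensities were not used here.

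None of the 4 measured antimicrobial peptide genes passed the test, in a background where 2.67% of named genes were called, 1.42% higher and 1.25% lower. At an unadjusted p under 0.05 from limma, 1 of the 4, *Drs*, was higher and 0 were lower, against 8.12% and 8.92% of named genes. The median log2 ratio of the 4 genes was 0.33, against 0.04 over all named genes, and their means ran from −0.06 for *Def* to 1.23 for *Drs*. *Drs* and *Mtk* were positive on every array, as were 14.8% of named genes. The 4 genes did not move as a block: on each array at least 1 lay near or below 0 while another lay well above it.

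*Drs* encodes drosomycin, a cysteine-rich antifungal peptide that serves as the standard readout of the Toll branch in the fat body. Its log2 ratio was 1.74 on replicate 1, 1.08 on replicate 2, 1.41 on replicate 3 and 0.70 on replicate 4. The 4 arrays all lay above 0, with no array apart from the rest, and both dye orientations gave the same sign, with means of 1.41 where *poly* RNA carried Cy5 and 1.06 where it carried Cy3. The mean was 1.23 ± 0.44 (SD, n = 4 arrays), which is a 2.35-fold ratio, with a 95% interval from limma of 0.73 to 1.74 that is not adjusted for the number of probes. The unadjusted p was 0.00154 and the adjusted p was 0.0546, just outside the threshold of 0.05. *Drs* ranked 373 by p among named genes, and 134 of them (1.13%) had a higher mean. Within each array *Drs* stood at the 99.4, 97.9, 88.0 and 92.3 percentile of all probes on replicates 1 to 4, the lowest of these on the array with the widest spread. An exact sign-flip test over the 4 arrays, two-sided, gave p = 0.125, the smallest value that 4 arrays allow.

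The way of fitting decided on which side of the threshold *Drs* fell, while the size of its ratio hardly moved. With array weights, which gave replicates 1 and 2 weights of 2.1 and 2.44 and replicates 3 and 4 weights of 0.289 and 0.675, *Drs* passed at an adjusted p of 0.0179 with a ratio of 1.30. That fit leans on 1 dye orientation. Over all 14569 probes it called 715 lower and 708 higher, against 165 and 184 with equal weights. A pass with array weights, here and below, was therefore much more common among probes in general. Under the other 10 alternatives the adjusted p lay between 0.0503, with probes averaged per gene, and 0.339, with a minimum log2 ratio of 0.5, and the ratio between 1.06 and 1.41. Without replicate 1, 2 or 4 no probe of any gene passed.

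**Figure D1:**
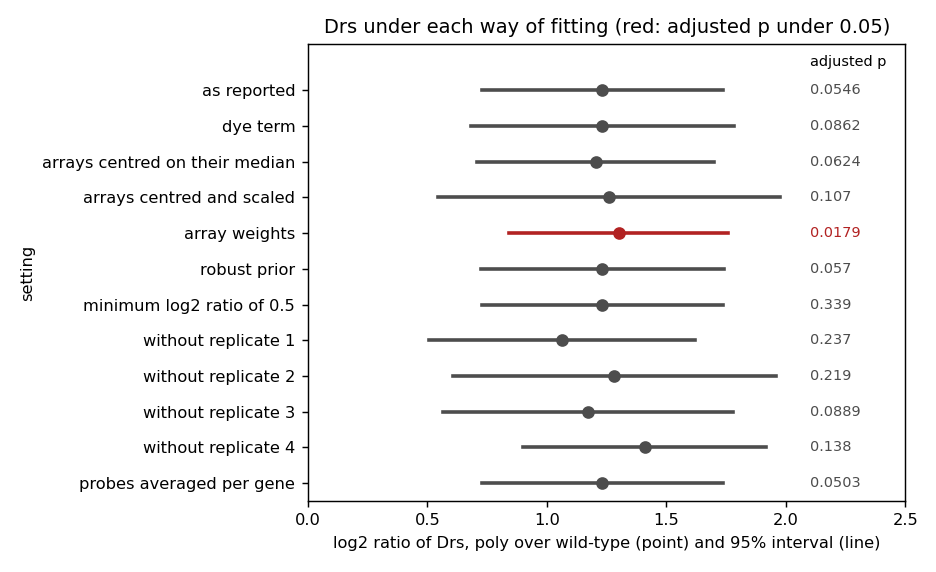
Log2 ratio of *Drs* (x axis, point) with its unadjusted 95% interval from limma (line) as reported and under 11 alternative settings (y axis), with the adjusted p at the right. The ratio stays between 1.06 and 1.41, and only the fit with array weights, in red, has an adjusted p under 0.05 (0.0179).

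*Mtk* encodes metchnikowin, a proline-rich peptide active against fungi and bacteria that both branches can induce. Its log2 ratio was 0.41, 0.31, 1.61 and 0.03 on replicates 1 to 4. Replicate 3 lay far above the other arrays, and replicate 4 lay at the wild-type level. The mean was 0.59 ± 0.70 (SD, n = 4, 95% interval −0.15 to 1.33, adjusted p = 0.434), and without replicate 3 it was 0.25. A reading over 1 on replicate 3 with the 3 other arrays between −0.6 and 0.6 was shared by 870 of 12657 named probes (6.87%), bounds that were chosen after the values were seen.

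*AttD* belongs to the attacins, glycine-rich peptides that act on Gram-negative bacteria and are read as targets of the Imd branch. It read 0.44, −0.14, 0.21 and −0.20 on replicates 1 to 4, positive on 1 array of each dye orientation and negative on the other. The mean of 0.08 ± 0.30 (SD, n = 4, adjusted p = 0.886) had a 95% interval of −0.31 to 0.46. *Def* encodes defensin, a cysteine-rich peptide active against Gram-positive bacteria. It read −0.06, −0.18, 0.05 and −0.06, the tightest set of the 4 genes, with a mean of −0.06 ± 0.09 (adjusted p = 0.853). Its unadjusted 95% interval of −0.32 to 0.20 leaves out a doubling and a halving of the deposited ratio. Spot intensities were not used, so whether *Def* was expressed enough to show a change is not known here.

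*Drs* was the highest of the 4 genes on replicates 1, 2 and 4, and *Mtk* on replicate 3. The number of the 4 that were positive was 3, 2, 4 and 2 on replicates 1 to 4. Their median was 0.43, 0.08, 0.81 and −0.02, beside medians of all named genes of −0.01, −0.05, 0.16 and 0.01. The median of the 4 genes was highest on replicate 3, at 0.81 against 0.16 for all named genes, which was also the highest median of all named genes. The part of that array-wide height in the peptide values was not tested.

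A further 8 antimicrobial peptide genes outside the list had a probe, and 0 of them passed the limma test or reached an unadjusted p under 0.05. *AttB* (CG18372), which lies next to *AttA* in gene order, read 1.88 on replicate 1 and 0.22, 0.45 and −0.12 on replicates 2 to 4. *DptB* (CG10794), a diptericin that lies next to *DptA*, read 2.13 on replicate 1 and −0.48, −0.06 and 0.47 on the others. Both genes stood at the 99.5 percentile or above on replicate 1 and gave no common direction elsewhere. Their means were 0.61 ± 0.88 and 0.51 ± 1.14 (SD, n = 4, adjusted p = 0.524 and 0.697).

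A height on replicate 1 alone was rare on these arrays. Over 1 on replicate 1 with the others between −0.6 and 0.6, bounds that were chosen after the values were seen, stood 8 of 12657 named probes, and 3 of the 8 were *AttB*, *DptB* and *pirk* (CG15678), an inhibitor of the Imd branch that the branch itself induces. *pirk* read 1.49, 0.24, 0.19 and 0.52 on replicates 1 to 4 (mean 0.61, adjusted p = 0.347). The same shape was held by 4 probes for replicate 2, 870 for replicate 3 and 159 for replicate 4. The bound of 1 was the same on every array, although replicate 1 had the smallest median absolute deviation (0.20, against 0.35 on replicate 3). *AttD* and *Def* did not share it, at 0.44 and −0.06 on replicate 1. On that array *Lsp2*, a larval serum protein of the fat body that accumulates late in larval life, read −3.48, against 1.53, 3.43 and 1.12 on replicates 2 to 4. *Fbp1*, a fat body receptor protein that ecdysone induces, read −2.34 there, against −0.12, 5.22 and −0.18, and the part of these differences in the peptide values was not tested.

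The drosomycin-like genes did not follow *Drs*. All 6 lie with *Drs* on arm 3L in a stretch of 15 protein-coding genes of the RefSeq order. *Drsl2* (CG32279) read −1.76, −1.84, 0.69 and −1.19 on replicates 1 to 4, opposite to *Drs* on 3 arrays, with a mean of −1.02 ± 1.18 (SD, n = 4, adjusted p = 0.40). Without replicate 3 its mean was −1.60 and its adjusted p was 0.0311, so its result rested on that array, which also has the lowest weight in the fit with array weights (adjusted p = 0.0273). *Drsl1* and *Drsl6* moved in opposite directions on replicates 2 and 3, at −2.03 and 2.02 for *Drsl1* and −2.92 and 2.64 for *Drsl6*, with all readings of replicates 1 and 4 between −0.27 and 0.00. Under −1 on replicate 2 together with over 1 on replicate 3 was found for 697 named probes (5.51%), and the reverse for 2. *Drsl3* (0.08), *Drsl4* (−0.07) and *Drsl5* (0.10) had means near 0, with adjusted p from 0.746 to 0.972.

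**Figure D2:**
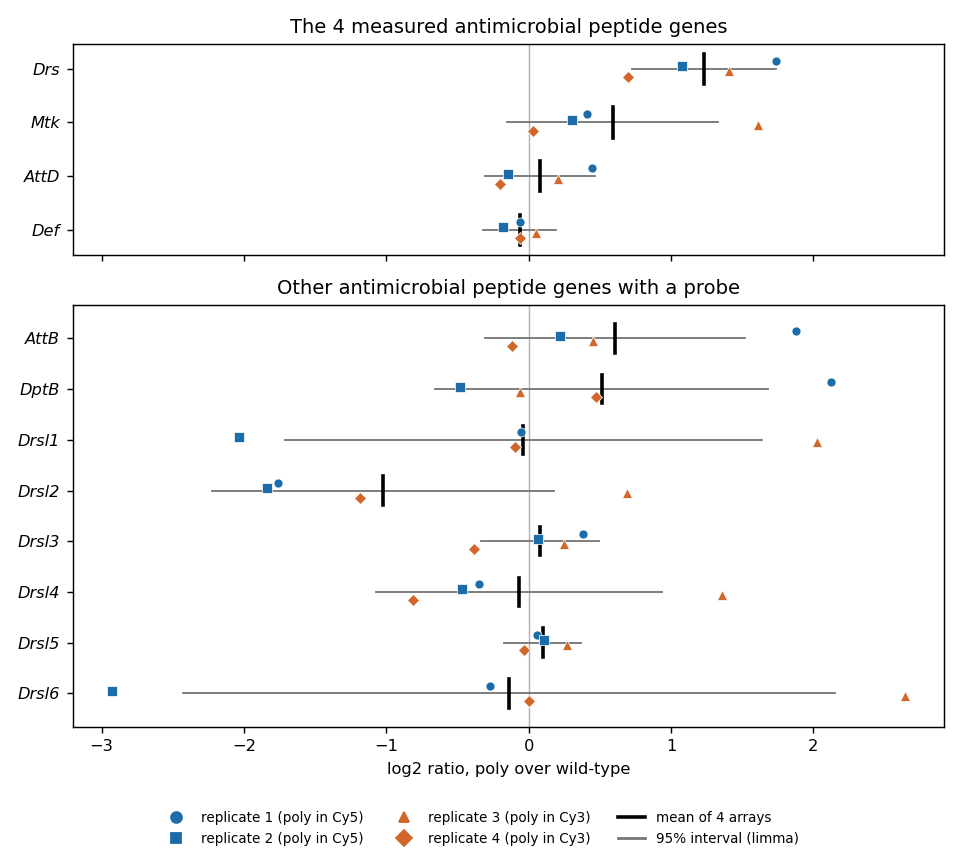
Log2 ratio of *poly* over wild-type (x axis) for the 4 measured genes of the list and 8 other antimicrobial peptide genes (y axis). Each symbol is 1 array, blue where *poly* RNA carried Cy5 and orange where it carried Cy3, the black bar is the mean and the grey line the unadjusted 95% interval from limma. *Drs* has its 4 arrays from 0.70 to 1.74, while *AttB* and *DptB* are high on replicate 1 and *Drsl1* and *Drsl6* spread to both sides of 0.

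Among other immune-induced genes *SPH93* was called higher and none was called lower. Of 11 measured Bomanins and other genes induced by infection, 1 rose (9.09%), 0 fell and 10 did not pass. Over all named genes 1.42% were called higher and 1.25% lower. The median log2 ratio of the 11 was 0.61 against 0.04 for all named genes. At an unadjusted p under 0.05 there were 5 higher and 0 lower, against 8.12% and 8.92% of named genes, and 6 of the 11 were positive on every array, against 14.8%. *SPH93*, a serine protease homologue, rose to 1.19 ± 0.33 (SD, n = 4, adjusted p = 0.0386). It read 1.30, 1.46, 1.29 and 0.71 on replicates 1 to 4, and like *Drs* it was lowest on replicate 4. Its call was lost without any 1 of the 4 arrays (adjusted p from 0.0648 to 0.232), with a dye term (0.0601), with scaled arrays (0.0724) and with a minimum log2 ratio of 0.5 (0.229). Without replicate 1, 2 or 4 no probe of any gene passed, so the loss there is not particular to *SPH93*.

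The Bomanins are short secreted peptides that the Toll branch induces and that flies need against several pathogens. *BomS2* (CG18106) read 1.20, 0.20, 1.10 and 0.39 on replicates 1 to 4 (mean 0.72 ± 0.50, adjusted p = 0.193). *BomS4* (CG18107) read 0.91, 0.76, 0.37 and 0.40 (mean 0.61 ± 0.27, adjusted p = 0.116, and 0.0197 with array weights). *BomBc3* read 0.68, 0.46, 0.72 and 0.23 (mean 0.52 ± 0.22, adjusted p = 0.13, and 0.0376 with array weights). These 3 had every array above 0, and none passed the adjusted test with equal weights. *BomS5*, *BomS6*, *BomT2* and *BomBc2* had means of 0.38, 0.15, 0.09 and 0.03 (adjusted p from 0.372 to 0.962). Among these only *BomS6* was above 0 on every array. The 6 measured Bomanins of arm 2R, *BomS2* and *BomS4* among them, lie within 7 neighbouring protein-coding genes, so they may not vary independently. *BomT3* (2.63) and *edin* (2.88), another gene induced by infection, were high on replicate 3 and within 0.45 of 0 on the other arrays. *Listericin*, which encodes an antibacterial peptide, read 0.68, 0.76, 0.43 and 1.25 (mean 0.78 ± 0.34, adjusted p = 0.0933, and 0.0199 with array weights).

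**Figure D3:**
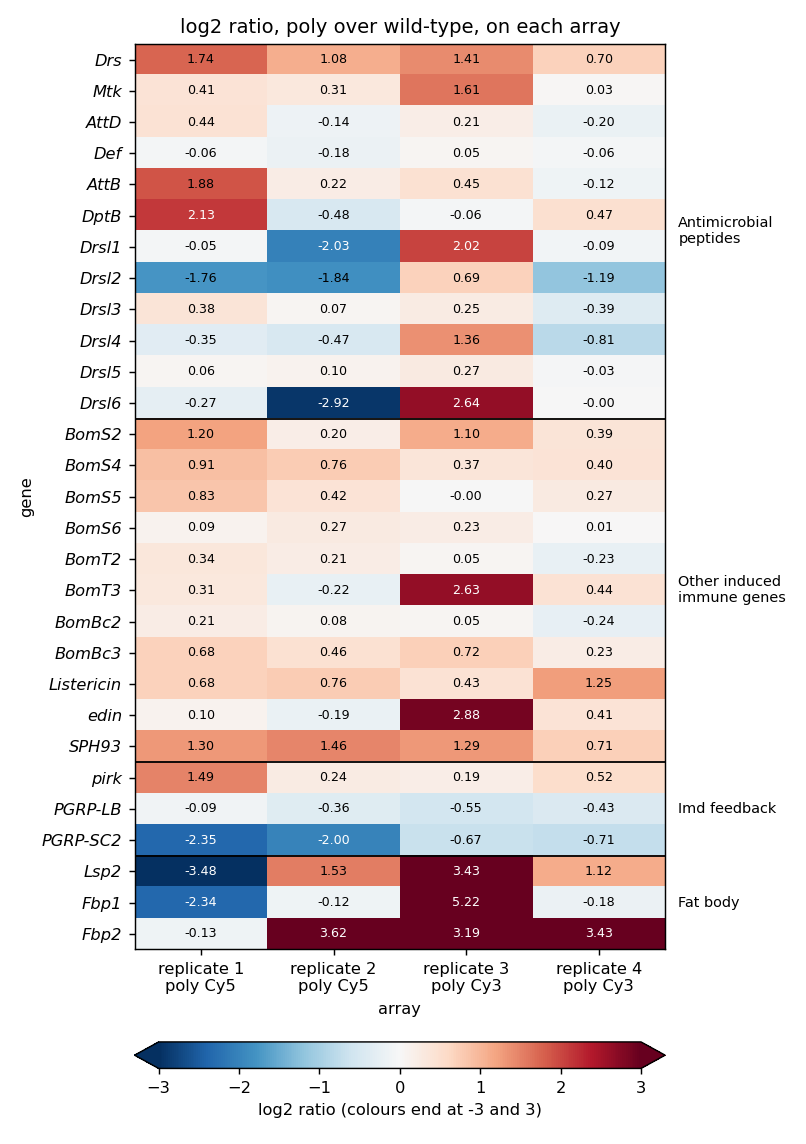
Log2 ratio of *poly* over wild-type on each of the 4 arrays (columns) for antimicrobial peptide genes, other immune-induced genes, feedback regulators of the Imd branch and 3 fat body genes (rows), with red for higher and blue for lower in *poly*. *Drs* and *SPH93* are red across the row, *AttB*, *DptB* and *pirk* on replicate 1, and *Mtk*, *BomT3* and *edin* most strongly on replicate 3, where *Fbp1* reads 5.22.

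Upstream of the peptides, *Rel* (CG11992), the Relish factor that ends the Imd branch, came nearest to the threshold among 15 measured genes of that branch, of which 0 passed. The first of its 2 probes read 1.35, 0.45, 1.01 and 0.92 on replicates 1 to 4, with a mean of 0.93 ± 0.37 (SD, n = 4, 95% interval 0.49 to 1.38, adjusted p = 0.0747). The second read 1.61, 0.86, 0.23 and 1.32, with a mean of 1.01 ± 0.60 (adjusted p = 0.138, and 0.0275 with array weights). Both probes were above 0 on the 4 arrays. *Tab2*, a partner of the kinase Tak1, read from 0.15 to 0.38 (mean 0.30, adjusted p = 0.243), and the adaptor *imd* itself had a mean of 0.09. The median of the branch was 0.13. At an unadjusted p under 0.05, 2 of 15 were higher (13.3%) and 0 lower, against 8.12% and 8.92% of named genes.

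Of 12 measured negative regulators of the Imd branch 0 passed, and the median was 0.12. At an unadjusted p under 0.05, 1 was higher (8.33%) and 2 lower (16.7%), against 8.12% and 8.92% of named genes. *PGRP-SC2*, an amidase that degrades peptidoglycan, read −2.35 and −2.00 on replicates 1 and 2 and −0.67 and −0.71 on replicates 3 and 4, so that its arrays divided by dye orientation. Its mean was −1.43 ± 0.87 (adjusted p = 0.132, 0.0374 with a dye term and 0.018 with array weights). *PGRP-LB*, another amidase, was below 0 on the 4 arrays with a mean of −0.36 (adjusted p = 0.239). *dnr1*, an inhibitor of the caspase Dredd, had a mean of 0.45 (adjusted p = 0.152).

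Of 22 measured genes of the Toll branch, 1 rose, 0 fell and 21 did not pass, and the median was 0.11. Over all named genes 1.42% were called higher. At an unadjusted p under 0.05, 2 of the 22 were higher (9.09%) and 0 lower, against 8.12% and 8.92% of named genes. On every array 3 of the 22 were positive (13.6%), against 14.8%. The gene that rose was *sphe*, which encodes a serine protease homologue upstream of the Toll ligand Spätzle. It read 0.90, 1.12, 0.59 and 1.13 on replicates 1 to 4, with a mean of 0.94 ± 0.25 (SD, n = 4, adjusted p = 0.0463). The call was lost without replicate 1, 2 or 4 (adjusted p from 0.173 to 0.249), where no probe of any gene passed. It was also lost with a dye term, median centring or scaled arrays (0.0722 to 0.0842) or a minimum log2 ratio of 0.5 (0.472). *grass*, a clip-domain protease of the same cascade, had a mean of 0.37 (adjusted p = 0.196). The receptor *Tl* had a mean of 0.15 (adjusted p = 0.589), and the inhibitor *cact* read −0.05 and −0.21 with its 2 probes. *Dif* read 1.97 on replicate 3 and between −0.59 and −0.02 on the others, and the 2 probes of *dl* differed in sign, at 0.20 and −0.18.

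**Figure D4:**
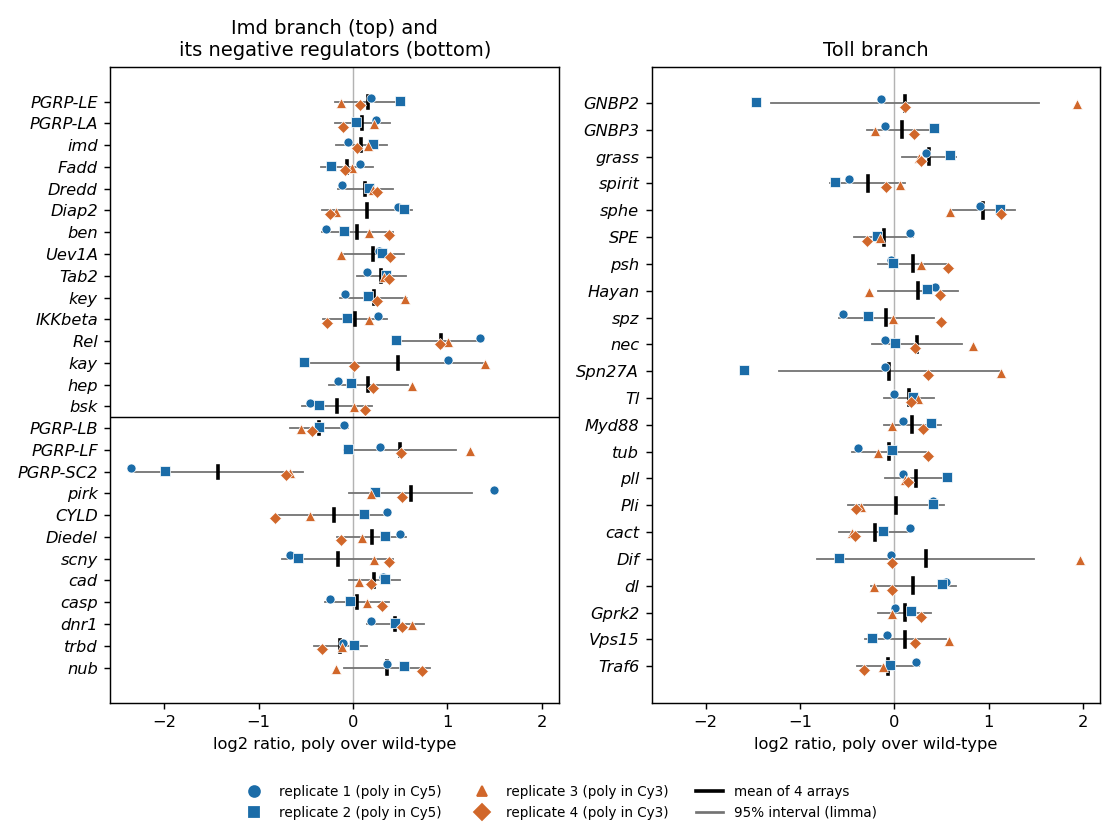
Log2 ratio of *poly* over wild-type (x axis) for 15 genes of the Imd branch and 12 of its negative regulators (left) and for 22 genes of the Toll branch (right), with 1 symbol per array, the mean as a black bar and the unadjusted 95% interval from limma as a grey line. For a gene with 2 probes the one with the smaller p is drawn. *Rel* and *sphe* stand to the right of 0 on every array and *PGRP-SC2* to the left, and the median is 0.13, 0.12 and 0.11 in the 3 lists.

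Among markers of the tissues that make these peptides, those of haemocytes and fat body moved in both directions. The midgut enzymes at an unadjusted p under 0.05 were all higher. Of 16 measured haemocyte markers, 1 rose (6.25%) and 0 fell, against 1.42% called higher and 1.25% called lower over all named genes. The haemocyte median was −0.13. At an unadjusted p under 0.05 there were 2 higher and 3 lower, against 8.12% and 8.92% of named genes, and 4 of the 16 were negative on every array, against 11.9%. *NimC1*, a phagocytosis receptor of plasmatocytes, rose to 1.50 ± 0.52 (SD, n = 4, adjusted p = 0.0492), a call lost with median centring (0.0684), scaled arrays (0.101), a robust prior (0.0535) or a minimum log2 ratio of 0.5 (0.225) and without any 1 array (0.0567 to 0.245). Without replicate 1, 2 or 4 no probe of any gene passed, so a call lost there is not particular to a gene. The 3 lower were the collagen IV genes *vkg* and *Col4a1*, which the fat body also expresses, and *fon*, a clotting factor. *vkg* read −0.95, −0.999, −2.05 and −0.87 on replicates 1 to 4 (mean −1.22 ± 0.56, adjusted p = 0.0803), and it passed with scaled arrays (0.0463), with array weights (0.0151) and without replicate 3 (0.0344). *fon* had a mean of −1.23 (adjusted p = 0.112, and 0.0288 with array weights), and *Col4a1* one of −1.06 (adjusted p = 0.244) with replicate 4 at 0.13. *Hml*, also a plasmatocyte marker, had a mean of 0.01, with a sign that turned with centring, scaling or array weights. Of 9 measured fat body genes, 1 fell (11.1%, against 1.25% of named genes called lower) and 8 did not pass, with a median of 0.24. The gene that fell was the lipid-droplet gene *Lsd-1* (perilipin), with a mean of −1.24 ± 0.31 (adjusted p = 0.0332). That call was lost with a dye term (0.0652), with a minimum log2 ratio of 0.5 (0.168) and without replicate 1, 2 or 4 (0.116 to 0.203). At an unadjusted p under 0.05 there were 2 higher and 2 lower, against 8.12% and 8.92% of named genes, so the list had no common direction. The 2 lower were *Lsd-1* and *FASN1*, which was below 0 on the 4 arrays with a mean of −0.90 ± 0.41 (adjusted p = 0.0898). *Fbp2*, a fat body protein, read −0.13 on replicate 1 and 3.62, 3.19 and 3.43 on replicates 2 to 4 (mean 2.52 ± 1.78, adjusted p = 0.169). *Desat1*, a fatty acid desaturase, was above 0 on the 4 arrays with a mean of 0.67 ± 0.25 (adjusted p = 0.0863, and 0.0259 with array weights). Of 13 measured midgut enzymes 0 passed, and the median was 0.26. At an unadjusted p under 0.05 there were 4 higher and 0 lower, against 8.12% and 8.92% of named genes. On every array 6 of the 13 were positive (46.2%), against 14.8%. The 4 higher were *alphaTry*, *betaTry*, *epsilonTry* and *Jon99Fi*. The trypsin genes *alphaTry*, *betaTry* and *epsilonTry* lie close together on arm 2R, so they may not vary independently. The digestive proteases *alphaTry* and *Jon99Fi* had the smallest p and, like *Drs*, were above 0 on the 4 arrays. *alphaTry* read 2.74, 3.20, 0.96 and 1.71 on replicates 1 to 4 (mean 2.15 ± 1.01, adjusted p = 0.0765), and it passed with a dye term (0.0407), with array weights (0.00911) and without replicate 3 (0.0388). *Jon99Fi* read 1.54, 1.31, 0.69 and 0.96 (mean 1.13 ± 0.38, adjusted p = 0.051), and it passed with a dye term (0.0486), with array weights (0.00799), with probes averaged per gene (0.0466) and without replicate 3 (0.0375). The part of these tissues in the ratio of *Drs* was not tested.

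The 5 genes outside these lists whose 4 readings lay nearest to the medians of the 4 peptide genes were *Desat2*, CG9813, *hec*, CG6652 and CG6321, at Euclidean distances from 0.112 to 0.178 over the 4 arrays. Of 11783 genes compared, 314 lay within 0.5, so such likeness over 4 arrays was common.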

How the data were processed

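The deposited values are log2 ratios, 1 column per array, that the authors made by quantifying long-oligonucleotide spots in Dapple and normalizing with vsn. How background was corrected and spots were filtered is not stated in the paper or the labels. The columns were used unturned, with *poly* taken as the numerator, a direction that was inferred because no header states it. The *poly* probe keeps its sign across the dye swap, so the columns are not Cy5 over Cy3 throughout, and the 5 genes looked up among those the study names as downregulated are negative.

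Of 14569 probes, 12657 had 1 gene symbol, 96 several, 1 none, and 1815 are unnamed here. Symbols came from the platform annotation, updated to the RefSeq assembly GCF_000001215.4, which was used for names and gene order. No source used here names the build behind the probes, so no coordinates are printed.

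Each probe was tested against 0 with limma (lmFit, eBayes, two-sided, Benjamini–Hochberg over all probes), with 4.97 degrees of freedom per probe, and the code was tested on simulated data. The list and the other gene lists were chosen with earlier results of these data known. The text names every measured peptide gene, and in the lists of other induced genes, of the Imd and Toll branches, of promoter-binding factors and of Turandot genes those that passed and otherwise the 2 with the smallest p. Other named genes were chosen after their values were seen. Where a gene has several probes, it is called if any passes, its mean is over its probes in list medians, and values quoted for it are those of its smallest-p probe. Alternatives were a dye term, array weights, median centring, scaling, testing against a log2 ratio of 0.5, a robust prior, averaging the probes of a gene, and leaving out each replicate. Fits were run in limma 3.58.1 under R 4.3.3, and summaries and plots in Python 3.11.15 with numpy 2.4.6, pandas 2.3.3 and matplotlib 3.10.9.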

Additional observations from a re-analysis of the deposited data

Results flagged for a closer look

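Among the genes given values in the text, 2 had a single array apart from the other 3, by the gap to the nearest array over the range of the 4. For *vkg* this share was 0.891, with replicate 3 at −2.05 against −0.999 to −0.87 on the others. For *Fbp2* it was 0.886, with replicate 1 at −0.13 against 3.19 to 3.62. Listed genes not given values elsewhere in the text also had high shares: *srp* (0.944), *lambdaTry* (0.902), *pll* (0.891) and *apolpp* (0.836). Chance alone marks about 1 in 20 groups this way, and *vkg* and *Fbp2* were both named after their values were seen.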

How the results depend on the processing

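The count of antimicrobial peptide genes called lower was 0 under every alternative run. The count called higher was 0 in the limma fit and 1, *Drs*, with array weights, and leaving out a replicate gave 0 to 0. Over all probes, the calls of 165 lower and 184 higher became 74 and 102 with a dye term, 715 and 708 with array weights, and 20 and 41 with a minimum log2 ratio of 0.5, and 184 higher became 90 with scaled arrays. Leaving out a replicate gave 0 to 163 lower and 0 to 236 higher. The counts were 0 without replicate 1, 2 or 4 (1529, 1478 and 1906 probes at an unadjusted p under 0.05), so no gene could keep a call there, and the cause was not tested. Leaving out a replicate turned the sign of genes with means near 0 or with readings on both sides of it. The range was −0.045 to 0.17 for *AttD*, −0.024 to 0.85 for *DptB*, −0.73 to 0.63 for *Drsl1*, −0.024 to 0.23 for *Drsl3*, −0.54 to 0.18 for *Drsl4* and −1.07 to 0.79 for *Drsl6*. *AttD* and *DptB* turned without replicate 1. *Drs* ran from 1.06 to 1.41, *Mtk* from 0.25 to 0.78 and *Def* from −0.10 to −0.02. For some other genes with printed values the alternatives were summarised after seeing the data. Among these, leaving out a replicate gave −0.21 to 0.64 for *Dif*, −0.11 to 0.22 for *Hml*, −0.28 to 2.03 for *Lsp2*, −0.88 to 1.64 for *Fbp1* and −0.14 to 0.074 for the first *cact* probe. Array weights turned these to −0.17, −0.17, −0.33, −0.70 and 0.13, and the *dl* probe at −0.18 to 0.0040. *Hml* also turned with median centring (−0.0145) and with scaled arrays (−0.0667). No paired analysis was possible because each array already compares both genotypes and there is 1 group of arrays.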

Other observations

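Stress peptides and transcription factors that act beside the NF-κB branches gave no call. Of 10 measured genes of the JAK-STAT pathway and the Turandot family, which are secreted after stress and infection, 0 passed. Their median log2 ratio was 0.12. At an unadjusted p under 0.05 from limma 0 were higher and 1 lower, against 8.12% and 8.92% of named genes. *TotE* read −0.43, −0.36, −0.31 and −0.48 on replicates 1 to 4, the tightest set among the genes named here, with a mean of −0.39 ± 0.07 (SD, n = 4, adjusted p = 0.135, and 0.0398 with array weights). *TotC* read 0.57, 0.95, 0.42 and −0.11 (mean 0.46 ± 0.44, adjusted p = 0.358).

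Of 4 measured factors that bind at peptide promoters, 0 passed and 1 was higher at an unadjusted p under 0.05, against 8.12% of named genes. *GATAe*, a GATA factor of the midgut, read 0.10, 0.46, 0.52 and 1.16 on replicates 1 to 4 (mean 0.56 ± 0.44, adjusted p = 0.261). *foxo*, which insulin signalling restrains and which can induce antimicrobial peptide genes in starved larvae, read −0.84 and −0.68 on replicates 1 and 2 and −0.08 and −0.16 on replicates 3 and 4. Its mean was −0.44 ± 0.37 (adjusted p = 0.316, and 0.044 with array weights, which lean on replicates 1 and 2).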
